A study of Mus with 18 samples.

Results

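The NADPH oxidase subunits Cyba, Cybb, Ncf1, Ncf4, Nox4, Rac1 and Rac2 were followed by their gene symbols through the RNA-seq of cultured cells and of mouse muscle. These 7 genes were found by symbol among the 21401 gene symbols measured in both experiments. Each experiment had 9 libraries, 3 each for control, LPS-treated and LPS-MIC-1-treated samples. LPS (lipopolysaccharide) is a bacterial cell wall component that activates innate immune cells, and MIC-1 (moringa isothiocyanate-1) is an isothiocyanate made from moringa. The cells were labelled C2C12, a line of mouse myoblasts, wild type, and received a saline vehicle (control), LPS at 1 μg/mL, or the same LPS with 10 μM MIC-1. The study's methods describe a treatment of 24 h with an ethanol vehicle and its results name a lower MIC-1 concentration for the sequenced cells than the labels do. The muscle was gastrocnemius, a calf muscle, from wild-type male C57BL/6 mice of unstated age. The mice received vehicle, LPS by intraperitoneal injection at 10 mg/kg, or MIC-1 at 80 mg/kg in 10% DMSO by gavage daily for 3 days and then the same LPS, and muscle was taken 16 h after LPS. There was no group with MIC-1 alone, so MIC-1 was only seen on top of LPS.

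NADPH oxidases carry electrons from NADPH across a membrane onto oxygen and make superoxide or hydrogen peroxide. The phagocyte oxidase, best known from neutrophils and macrophages, has a membrane core of Cybb (gp91phox, also called Nox2), which holds the electron path, and Cyba (p22phox), which stabilises it. When the cell is stimulated, cytosolic proteins including Ncf1 (p47phox, the organiser) and Ncf4 (p40phox, which binds a membrane lipid) join the core together with a Rac GTPase. Rac2 is restricted mainly to blood cells, whereas Rac1 is found in most cells and also acts on the actin skeleton and, in muscle, on glucose uptake. Nox4 is another catalytic subunit, which pairs with Cyba, makes mainly hydrogen peroxide and needs none of the cytosolic proteins.

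Levels are given in FPKM, fragments divided by transcript length and by the size of the library, so that genes of 1 library can be set side by side. The number of reads per library is unknown, so no counting interval can be given, and 13170 to 14978 genes per library were above 0. Differences are log2 fold changes of FPKM + 0.1, which understate the change of genes near 0, with standard errors and Benjamini-Hochberg adjusted p from limma. The test covered genes with a mean over 1 FPKM, 10877 in the cells and 9475 in muscle. A gene was called when its log2 fold change was over 1 in either direction with an adjusted p below 0.001 in cells or below 0.05 in muscle. The mice were divided at random among the groups, but the sources used here do not say whether a muscle library came from 1 mouse or several, or whether the cell libraries of a group came from separate cultures. The p-values therefore measure the spread between these libraries, which in the cells may be technical.

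The markers went against the cell label. Macrophage genes (14 of 15 listed were found) summed to 7768 to 7882 FPKM in the libraries labelled control and 5211 to 5357 in those labelled LPS. Myoblast genes (8 of 8) summed to 1.08 to 1.47 and 1.99 to 4.58 FPKM there, and the myoblast factors Myf5 and Pax7 were listed at 0 in all 6. In the LPS-MIC-1 libraries the macrophage genes summed to 225, 77.7 and 90.1 FPKM in replicates 1, 2 and 3, and the myoblast genes to 937 to 1184, with the macrophage genes C1qa, C1qc and Aif1 listed at 0. The macrophage enzyme Lyz2 had means of 4694, 1838 and 17.1 FPKM in the 3 groups in that order, and the muscle filament gene Des had 0.126, 0.498 and 398 FPKM. Groups of cell libraries are therefore named by their labels, and every difference between LPS-MIC-1 and another group is one between libraries whose cell markers also differ. In bulk RNA, fewer cells of a type and less RNA per cell cannot be told apart. All 10 muscle fibre genes were above 0 in every muscle library.

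In the cell libraries labelled control and LPS, the measured phagocyte oxidase members were abundant. In the LPS-MIC-1 libraries Cyba, Cybb, Ncf1, Ncf4 and Rac2 were near 0 while Rac1 was at 192 to 239 FPKM. By mean level the order in control was Cyba, Rac2, Ncf1, Rac1, Cybb, Ncf4 and Nox4, and no neighbours overlapped. In LPS the order was Cyba, Rac2, Rac1, Ncf4, Ncf1, Cybb and Nox4, and only Rac1 and Ncf4 overlapped. In LPS-MIC-1 Rac1 stood above the other members in every library, and all neighbours below it overlapped.

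**Figure D1:**
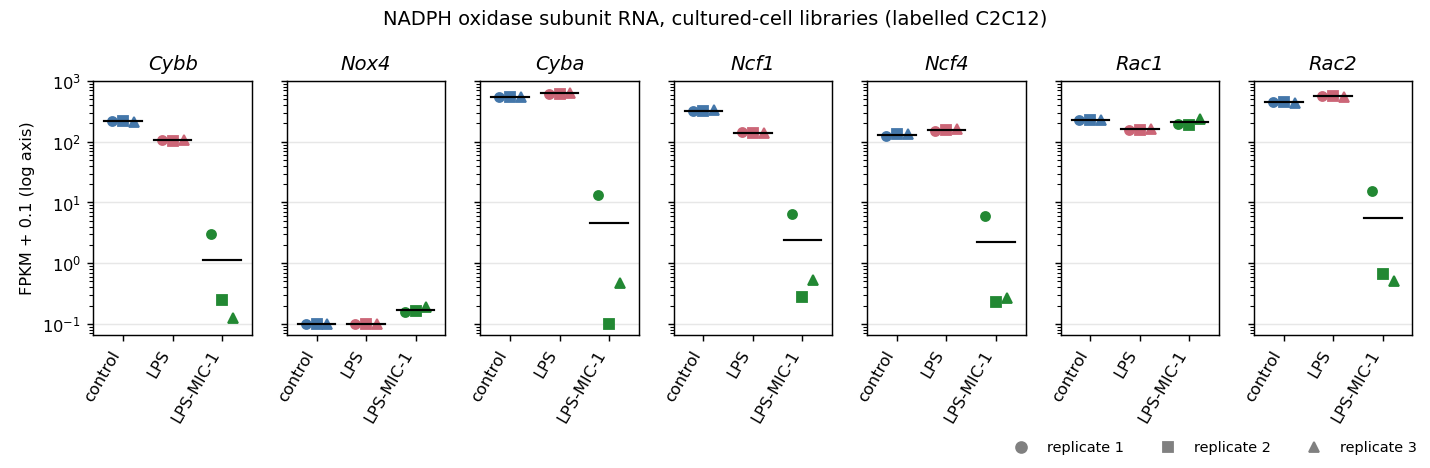
FPKM + 0.1 (log axis) of the 7 subunits in each of the 9 cell libraries. Points are replicates 1 to 3 and black lines are group means. Cyba, Cybb, Ncf1, Ncf4 and Rac2 lie between 104 and 645 FPKM in control and LPS and at 15.2 or below in LPS-MIC-1, where replicate 1 is the highest of each. Rac1 stays at 156 to 239 in all 9.

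Cybb, the catalytic subunit, had 217, 220 and 210 FPKM in the control replicates, 108, 104 and 107 in LPS, and 2.92, 0.149 and 0.0235 in LPS-MIC-1. The LPS libraries lay well below control, those of LPS-MIC-1 lay near 0, and the 3 groups did not overlap. Its partner Cyba had 542, 544 and 541 FPKM in control, 609.5, 616 and 645 in LPS, and 13.1, 0 and 0.372 in LPS-MIC-1. Cyba thus lay higher in LPS than in control, where Cybb lay lower. Nox4 was listed at 0 in all 6 control and LPS libraries and had 0.0583, 0.0632 and 0.0901 FPKM in LPS-MIC-1. Of the summed FPKM of Cybb and Nox4, Cybb made up 100% in the 6 control and LPS libraries, and 98.0%, 70.1% and 20.7% in LPS-MIC-1, where both genes were at or below 2.92 FPKM. The mean share differed by -37.0 percentage points from either other group, with p = 0.1 in a 2-sided exact permutation test, the smallest that 3 against 3 libraries allow. Nox4 at 0 fixed the share at 100% in control and LPS. Any Nox4 above 0 in all 3 LPS-MIC-1 libraries then gives this p, so nothing is read from it. Without LPS-MIC-1 replicate 3 the difference was -15.9 points, and without replicate 1 it was -54.6 points. In a limma fit without the FPKM filter Nox4 had a log2 difference of 0.77 between LPS-MIC-1 and either other group (adjusted p = 0.00016 and 0.000177). This did not pass the fold threshold. That fit kept genes above 0 in at least 3 libraries, so Nox4 entered it only through LPS-MIC-1, the group where it was higher. Nothing is read from these p-values.

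Ncf1, the organiser, had 319, 321 and 331 FPKM in the control replicates, 144, 137 and 140 in LPS, and 6.33, 0.178 and 0.423 in LPS-MIC-1. Ncf4 went the other way between control and LPS, with 124, 133 and 132 FPKM in control and 152, 156 and 159 in LPS. In LPS-MIC-1 it had 5.99, 0.132 and 0.168 FPKM. Neither gene's groups overlapped.

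Rac2 had 451, 460 and 436 FPKM in the control replicates, 571, 570.4 and 556 in LPS, and 15.2, 0.575 and 0.414 in LPS-MIC-1. Rac1 had 233, 228 and 225 FPKM in control, 158, 156 and 165 in LPS, and 194, 192 and 239 in LPS-MIC-1. Rac1 was the only member whose LPS-MIC-1 libraries overlapped those of control. Rac2 made up 66.3 ± 0.485% (SD, n = 3) of the summed FPKM of Rac1 and Rac2 in control and 78.0 ± 0.744% in LPS, a difference of 11.7 percentage points. In LPS-MIC-1 the share was 7.24%, 0.299% and 0.173%, and its mean differed by -75.4 points from LPS and by -63.7 points from control. All 3 of these differences had p = 0.1 in the exact permutation test, the smallest it can give. Rac1, Rac2 and Rac3 have closely related coding sequences, and reads they share are divided between them by the quantification, which was not tested here.

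**Figure D2:**
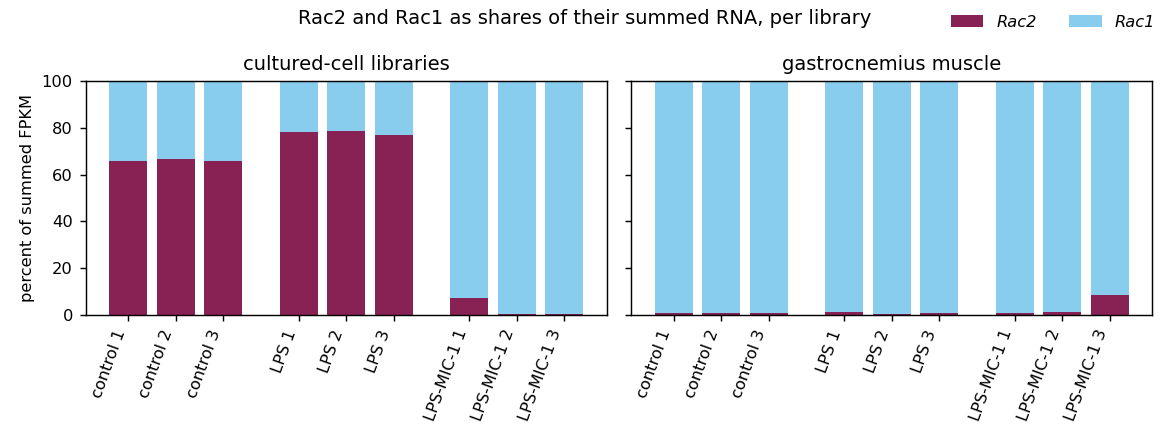
Rac2 (dark) and Rac1 (light) as percent of their summed FPKM in each library, cells on the left and muscle on the right. Rac2 holds 66.0 to 78.5% in the cell control and LPS libraries, 7.24% or less in cell LPS-MIC-1, and 1.21% or less in muscle except for 8.45% in LPS-MIC-1 replicate 3.

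The first comparison asked what LPS changed in the cells. With all 9 libraries in the fit, 0 of the 6 members tested were called (Nox4 was not tested), where 20.9% of all genes tested were called in either direction. At an unadjusted p under 0.05, 1 member passed, where 66.2% of all tested genes did. This was Rac1 at -0.52 on the log2 scale (standard error 0.0819, adjusted p = 0.000704), past the p threshold but not the fold threshold. Cybb had -1.02 (standard error 1.00, adjusted p = 0.412) and Ncf1 had -1.20 (standard error 0.991, adjusted p = 0.325). That fit shares 1 spread over the 3 groups, and LPS-MIC-1 replicate 1 lay far above replicates 2 and 3 for both genes. When only the 6 control and LPS libraries were fitted, Cybb (standard error 0.0254, adjusted p = 1.12e-06) and Ncf1 (standard error 0.0253, adjusted p = 6.59e-07) were called lower at the same fold changes, where 11.3% of all genes were. Rac1 kept -0.52 (adjusted p = 1.42e-05) in that fit.

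The other 3 tested members had small positive differences between LPS and control. Rac2 had 0.33 (standard error 0.0250, adjusted p = 7.71e-05 in the 6 libraries, 0.824 in all 9). Ncf4 had 0.26 (0.000927 and 0.861 in the same order) and Cyba 0.20 (0.000713 and 0.927). Under quantile normalization, which forces all libraries onto 1 distribution, Cyba had -0.074 and Rac2 -0.037, so their direction depends on the scaling. Groups did not overlap for any of the 6, with 3 higher and 3 lower in LPS, and 39.4% and 40.1% of all tested genes did not overlap in these directions.

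The second comparison asked what MIC-1 changed on top of LPS. Here 5 of the 6 tested members were called lower in LPS-MIC-1, against 25.6% of all tested genes. The LPS-MIC-1 libraries of these 5 lay below all LPS libraries, as they did for 43.7% of all tested genes. Cyba fell by 9.51 on the log2 scale (standard error 1.49, adjusted p = 0.000381), the largest difference among the members. Rac2 fell by 8.34 (standard error 1.12, adjusted p = 0.000149) and Cybb by 7.88 (standard error 1.00, adjusted p = 0.000105). Ncf4 fell by 7.75 (standard error 1.10, adjusted p = 0.000209), and Ncf1 fell by 7.16 (standard error 0.991, adjusted p = 0.000176). The median over the 6 members was -7.81, and that over all genes was -0.05. Rac1 had a positive difference of 0.38 (standard error 0.0819, adjusted p = 0.00263), which passed neither threshold and was -0.019 under quantile normalization.

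These 5 calls lie close to the threshold on p, although the groups are far apart. With only the 6 LPS and LPS-MIC-1 libraries, 0 were called by limma, where 22.4% of all genes were called lower, since adjusted p lay between 0.00107 (Cybb) and 0.00271 (Cyba), and in the fit of all 9 libraries 6 members had an unadjusted p under 0.05, as 85.2% of all genes did. Without LPS-MIC-1 replicate 1 all 5 were called, from -8.52 for Ncf1 to -11.49 for Cyba. Without LPS replicate 1, LPS replicate 3, LPS replicate 2 or LPS-MIC-1 replicate 3, the number called was 2, 2, 3 and 3. Fold sizes near 0 FPKM rest on the added 0.1. With 1 FPKM added in its place Cyba fell by 7.86 and Cybb fell by 6.01.

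Replicate 1 of LPS-MIC-1 held the phagocyte oxidase RNAs at a similar small fraction of their LPS level. That fraction was 2.11% for Cyba, 2.68% for Rac2, 2.75% for Cybb, 3.85% for Ncf4 and 4.51% for Ncf1. The summed macrophage genes of this library were at 4.26% of the LPS mean. In replicates 2 and 3 the member fractions were at or below 0.302%, and those of the macrophage sum were 1.47% and 1.70%. Most of that sum was Cd14, the LPS co-receptor, with 73.8 and 88.3 FPKM in these libraries. Without Cd14, which was left out with these values known, the macrophage sum was at 2.75%, 0.120% and 0.0553% of its LPS mean in replicates 1, 2 and 3. Whether macrophage RNA accounts for the residual oxidase RNA was not tested.

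Against control, LPS-MIC-1 also had 5 members called lower, against 22.1% of all tested genes, and 42.7% of all genes were lower without overlap, as these 5 were. Both comparisons share the LPS-MIC-1 libraries, so they are not independent. Cyba fell by 9.31, Cybb by 8.90, Ncf1 by 8.37, Rac2 by 8.01 and Ncf4 by 7.49 on the log2 scale, with adjusted p from 5.49e-05 to 0.00048. Rac1 had -0.14 (95% interval -0.33 to 0.05, adjusted p = 0.143), and -0.63 under quantile normalization (adjusted p = 4.22e-07). The call of Cyba did not hold with only the 6 libraries (adjusted p = 0.00317) or when any 1 control library, any 1 LPS library or LPS-MIC-1 replicate 3 was left out (up to 0.00251). With only the 6 libraries 2 members were called, Cybb and Ncf1, where 18.7% of all genes were called lower. Leaving out any 1 control library also gave 2, and leaving out LPS-MIC-1 replicate 2 or replicate 3 gave 3. Without the 6 libraries whose markers go against their label, no comparison remains in the cells, and only the LPS-MIC-1 levels stand.

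In muscle the subunits had a different order. Rac1 stood first at 74.4 to 112 FPKM, Cyba second at 5.10 to 17.6, and Cybb, Ncf1, Ncf4, Nox4 and Rac2 were near or below 1 FPKM in control and LPS. In control Ncf1 and Rac2 overlapped, as did Ncf4 and Cybb, and in LPS Rac2 overlapped Ncf1, Ncf1 overlapped Ncf4, and Ncf4 overlapped Cybb. Of the 7 members, 4 passed the mean of 1 FPKM and were tested. Of these, Rac2 and Ncf1 had group means under 1 FPKM in control and LPS and passed only through LPS-MIC-1.

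**Figure D3:**
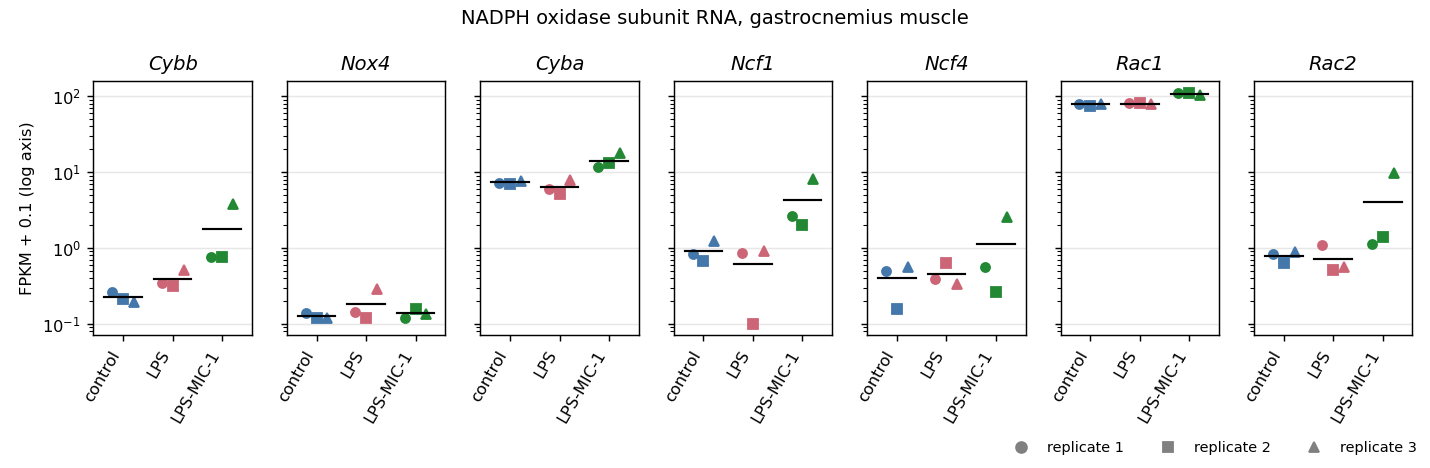
FPKM + 0.1 (log axis) of the 7 subunits in each of the 9 muscle libraries, with replicates as points and group means as black lines. Rac1 and Cyba are highest in all 3 LPS-MIC-1 libraries, and LPS-MIC-1 replicate 3 (triangle) stands above the others for Cybb (3.69 FPKM), Ncf1 (8.01), Ncf4 (2.44) and Rac2 (9.51).

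Cyba had 7.20, 6.87 and 7.56 FPKM in the muscle control replicates, 5.83, 5.10 and 7.85 in LPS, and 11.7, 13.0 and 17.6 in LPS-MIC-1. Control and LPS overlapped, and all LPS-MIC-1 libraries lay above both. Cybb had 0.161, 0.112 and 0.0972 FPKM in control, 0.243, 0.211 and 0.419 in LPS, and 0.664, 0.672 and 3.69 in LPS-MIC-1. Its 3 groups did not overlap, at levels too low for the test, and 18.8% of all tested genes lay higher in LPS than in control without overlap. Nox4 was at 0.0202 to 0.0585 FPKM in every muscle library except LPS replicate 3, with 0.185, and its groups overlapped. Of the summed FPKM of Cybb and Nox4, Cybb made up 82.2 ± 2.47% in control, 81.9 ± 11.3% in LPS and, with LPS-MIC-1, 96.0 ± 3.62% (SD, n = 3). The share was 13.8 percentage points higher in LPS-MIC-1 than in control and 14.1 points higher than in LPS, both with p = 0.1 in the exact permutation test, the smallest possible. The difference from LPS was 7.77 points without LPS replicate 3.

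Ncf1 had 0.725, 0.576 and 1.14 FPKM in muscle control, 0.760, 0 and 0.813 in LPS, and 2.57, 1.90 and 8.01 in LPS-MIC-1. The LPS-MIC-1 libraries lay above all others. Ncf4 had 0.404, 0.0573 and 0.463 FPKM in control, 0.291, 0.527 and 0.231 in LPS, and 0.455, 0.164 and 2.44 in LPS-MIC-1, and its groups overlapped.

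Rac1 had 80.2, 74.4 and 79.0 FPKM in muscle control, 80.6, 80.8 and 78.0 in LPS, and 110, 112 and 103 in LPS-MIC-1. Its replicates were close, and LPS-MIC-1 stood above both other groups. Rac2 had 0.722, 0.538 and 0.778 FPKM in control, 0.988, 0.417 and 0.465 in LPS, and 1.04, 1.30 and 9.51 in LPS-MIC-1. Replicates 1 and 2 of LPS-MIC-1 were just above the highest LPS library, and replicate 3 was far above it. Rac2 made up 0.862 ± 0.131% (SD, n = 3) of Rac1 plus Rac2 in control, 0.772 ± 0.382% in LPS, and 0.935%, 1.15% and 8.45% in the LPS-MIC-1 replicates. The exact permutation p was 0.8 between LPS and control, and LPS-MIC-1 gave 0.3 against LPS and 0.2 against control.

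No member was called between LPS and control in muscle by limma, 0 of 4 tested, where 1.25% of all genes were called in either direction, and 0 had an unadjusted p under 0.05, where 29.6% of all genes did. Rac1 had a log2 difference of 0.036 (95% interval -0.06 to 0.13) and Cyba -0.22 (-0.64 to 0.20). Ncf1 had -1.05 (-3.08 to 0.99) and Rac2 -0.18 (-1.90 to 1.54), intervals too wide to give a direction. Without LPS replicate 2, in which Ncf1 is listed at 0, Ncf1 had 0.00381 and Rac2 0.0213.

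Between LPS-MIC-1 and LPS in muscle, Cyba and Ncf1 were called higher, 2 of the 4 tested members, where 9.67% of all tested genes were. Nothing is read from that count, since Ncf1 and Rac2 entered the test only through LPS-MIC-1, the group where they were higher. Cyba rose by 1.16 on the log2 scale (standard error 0.184, adjusted p = 0.000805) and Ncf1 by 3.03 (standard error 0.884, adjusted p = 0.0181). Rac1 was higher by 0.44 (standard error 0.0427, adjusted p = 4.5e-05), past the p but not the fold threshold. Rac2 had 1.86 (standard error 0.749, adjusted p = 0.0631). Cyba and Rac1 lay above LPS without overlap, as did 32.5% of all tested genes. Without LPS-MIC-1 replicate 3, 0 members were called, with Cyba at 0.98 (adjusted p = 0.00206) and Ncf1 at 2.43 (adjusted p = 0.0642), while Rac1 had 0.47 (adjusted p = 6.47e-05). Without LPS-MIC-1 replicate 1, 3 were called, since Rac2 was added (2.42, adjusted p = 0.0312).

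Against control, 0 of the 4 members were called in muscle by limma, where 9.33% of all genes were called higher, and 2 had an unadjusted p under 0.05, where 62.6% of all genes did. These were Rac1, higher by 0.48 (standard error 0.0427, adjusted p = 2.62e-05), and Cyba, with 0.93 (standard error 0.184, adjusted p = 0.00254), just under the fold threshold. Ncf1 had 1.99 (adjusted p = 0.0852) and Rac2 1.68 (adjusted p = 0.0853). With only the 6 control and LPS-MIC-1 libraries, Ncf1 was called (adjusted p = 0.0218), where again 9.33% of all genes were called higher. It was also called without LPS replicate 2 (adjusted p = 0.013). Without LPS-MIC-1 replicate 1, Cyba (1.06) and Rac2 (2.25, adjusted p = 0.0405) were called. Nothing is read from the calls of Ncf1 and Rac2, which entered the test only through LPS-MIC-1, the group where they were higher. Cyba and Rac1 lay above control without overlap, as did 33.4% of all tested genes. Without an FPKM filter Cybb was called higher, by 2.56 against control (adjusted p = 0.00841) and by 1.78 against LPS (adjusted p = 0.0427), while Ncf4 had 1.02 and 0.73 (0.374 and 0.537) and Nox4 had 0.12 and -0.30 (0.802 and 0.497). Both LPS-MIC-1 comparisons share those 3 libraries. Quantile normalization moved the median of all genes by -0.11 and -0.12, and under it Rac1 had 0.40 against control and 0.35 against LPS.

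**Figure D4:**
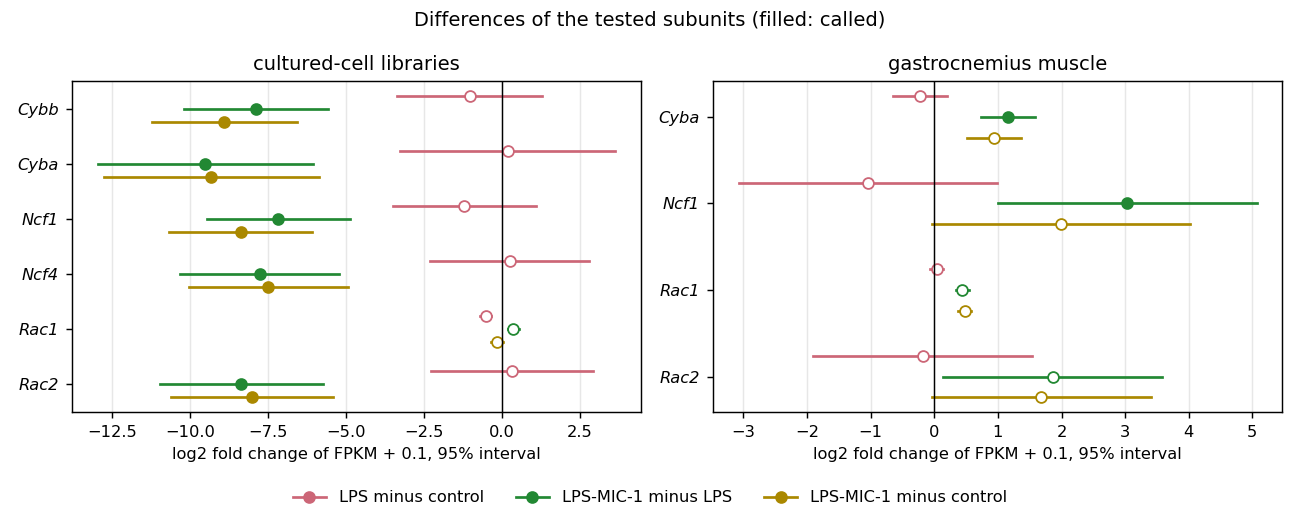
Log2 fold changes of FPKM + 0.1 with 95% intervals for the tested members, 6 in cells (left) and 4 in muscle (right), for the 3 comparisons. Filled points were called. In cells 5 members lie between -7.16 and -9.51 in both LPS-MIC-1 comparisons and Rac1 lies near 0, and in muscle only Cyba and Ncf1 against LPS are filled.

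Replicate 3 of muscle LPS-MIC-1 stood apart. Relative to the mean of the 6 control and LPS libraries, it held 17.8 times the Cybb, 14.6 times the Rac2, 11.98 times the Ncf1, 7.41 times the Ncf4 and 2.61 times the Cyba level. Rac1 was at 1.31 times in this library, the lowest of the 3 LPS-MIC-1 libraries. In replicates 1 and 2 the same ratios were 3.21 and 3.24 for Cybb, 3.84 and 2.84 for Ncf1, 1.60 and 1.99 for Rac2, 1.73 and 1.92 for Cyba, and 1.38 and 0.499 for Ncf4. The summed macrophage genes moved with this library, at 154 FPKM against 32.0 and 31.4 in replicates 1 and 2, 25.6 to 30.3 in control and 38.4 to 39.6 in LPS. Aif1 was listed at 0 in all 9 muscle libraries and Emr1 and Ptprc in the 3 LPS libraries, and Lyz2 had 78.3 FPKM in replicate 3 against 5.27 and 3.93. Single macrophage genes differed from the sum. Cd14 had 3.39, 3.74 and 15.5 FPKM in LPS-MIC-1 and Sfpi1 had 2.09, 1.25 and 8.23. Both were called higher than in LPS, by 3.37 (adjusted p = 0.00103) and 2.08 (adjusted p = 0.0158). Every LPS-MIC-1 library lay above all LPS libraries for both, as for 32.5% of all tested genes. Sfpi1 had means of 0.534 and 0.597 FPKM in control and LPS, and both genes entered the test only through LPS-MIC-1. Nothing is read from either call. The complement genes C1qa and C1qc had -0.87 and -0.77 against LPS (adjusted p = 0.00348 and 0.00837), under the fold threshold. C1qb, of the same list, had -0.031 (adjusted p = 0.78) and overlapped LPS. These macrophage genes were picked with their values known. The neutrophil genes (11 of 12 found) summed higher in all 3 LPS-MIC-1 libraries, with sums of 14.9, 20.04 and 18.8 FPKM against 1.76 to 2.74 in control and 1.80 to 2.02 in LPS. Among them S100a8 had 7.25, 7.47 and 7.41 FPKM in LPS-MIC-1. Elane was listed at 0 in all 9 muscle libraries and Csf3r, Ngp and Ltf in the 6 control and LPS libraries. Of the 4 tested, S100a8 and Ngp were called higher than LPS, where 9.67% of all genes were. S100a8 and Ngp both entered the test only through LPS-MIC-1, so nothing is read from that count. Cxcr2 overlapped LPS and control, with 0.26 and -0.13 (adjusted p = 0.347 and 0.64). S100a9 was not called against either (adjusted p = 0.103 and 0.159). The part of either cell type in the subunit differences was not tested.

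**Figure D5:**
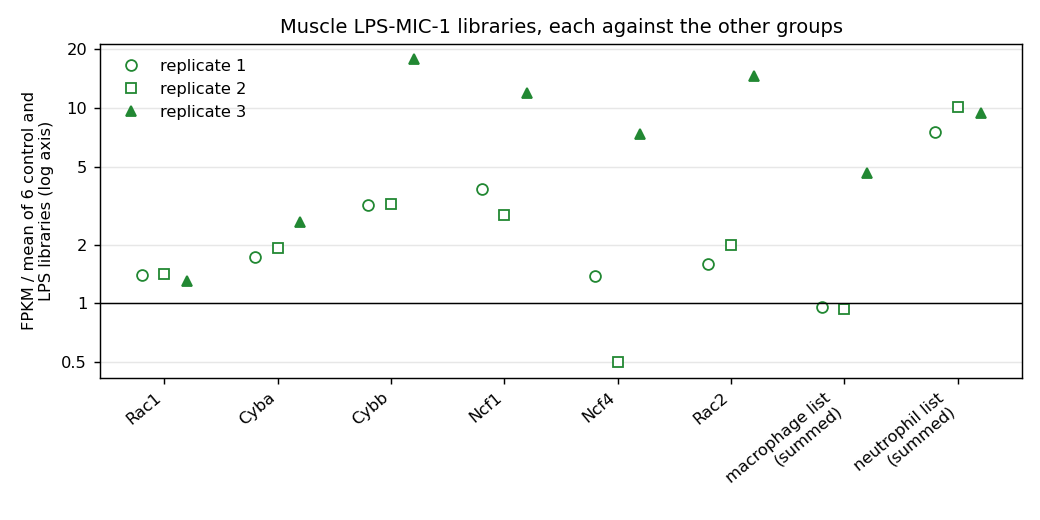
Level of each gene or summed marker list in the 3 muscle LPS-MIC-1 libraries, divided by its mean over the 6 control and LPS libraries (log axis, line at 1). Replicate 3 (filled) reaches 17.8 for Cybb and 14.6 for Rac2, where replicates 1 and 2 are at 3.24 and 1.99 or below. Rac1 is at 1.31 to 1.42 in all 3, and the neutrophil list at 7.53 to 10.1.

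The other homologues and helper proteins were mostly near 0. Of 10 listed, 8 were found and 3 were tested in cells. Between LPS-MIC-1 and LPS in cells, 1 of these 3 was called lower and 1 higher, where 25.6% and 24.3% of all genes were. BC017643 is an older symbol of Cybc1, the chaperone needed for the Cybb and Cyba core. Its level was 7.88 to 10.2 FPKM in control, 15.2 to 20.04 with LPS alone and 1.28 to 4.99 with LPS-MIC-1, where it fell by 2.59 against LPS (adjusted p = 0.000441). Rac3, the third Rac, had 1.59 to 1.95 FPKM with LPS alone, 3.97 to 4.86 with LPS-MIC-1, and rose by 1.31 (adjusted p = 0.000456). Against control 1 of the 3 was called, higher (Rac3, 1.67), where 21.1% of all genes were. Between LPS and control 0 of 3 were called by limma, where 20.9% of all genes were. Noxo1, an organiser used by Nox1, had 0.271 to 1.71 FPKM in the cells and was called in no comparison.

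Duox1, an oxidase that makes hydrogen peroxide, was listed at 0 in all cell control and LPS libraries and had 1.29, 1.39 and 0.866 FPKM in LPS-MIC-1. Its partner Duoxa2 was also listed at 0 there and had 0.0763 to 0.148 FPKM in LPS-MIC-1. Nox1, Nox3 and Noxa1 stayed at or below 0.222 FPKM in all cell libraries. In muscle no homologue was tested. Rac3 had 0.740 to 1.25 FPKM in the control and LPS libraries and 0.408 to 0.669 in LPS-MIC-1. BC017643 was at or below 1.28 FPKM and Noxo1 at or below 0.634 in muscle, Nox1, Noxa1, Duox1 and Duoxa2 were at or below 0.145, and Nox3 was listed at 0 in all 9 libraries.

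Genes that regulate the oxidase or Rac were all found (19 of 19), and 18 were tested in cells. Between LPS and control 2 were called higher and 3 lower, where 10.9% and 10% of all genes were, with Pak1, a kinase switched on by Rac, changing most. Pak1 fell from 23.9 ± 2.59 to 6.95 ± 0.443 FPKM (SD, n = 3), by 1.76 on the log2 scale (adjusted p = 0.000657). Of these regulators 5 were called higher and 9 lower between LPS-MIC-1 and LPS, where 24.3% and 25.6% of all genes were. Against control 4 were called higher and 9 lower, where 21.1% and 22.1% of all genes were. Both counts of higher genes include Tiam1 and Prkcb, which entered the test only through LPS-MIC-1. In control and LPS their means were 0.888 and 0.855 FPKM for Tiam1, and 0.0341 and 0.0432 for Prkcb. Nothing is read from the counts of higher genes. Prex1, an exchange factor that loads Rac with GTP, fell most in both, by 6.91 and 6.74, from 42.9 ± 1.44 FPKM in LPS to 0.463 ± 0.652. In muscle 12 were tested, with 0 called between LPS and control, where 1.25% of all genes were. For LPS-MIC-1, 1 was called lower against LPS (5.44% of all genes were). Against control 2 were called higher and 2 lower (9.33% and 6.12% of all genes). Prkcd, a protein kinase C that phosphorylates Ncf1, changed most of these against control, from 6.08 ± 2.61 to 18.0 ± 0.712 FPKM (1.64, adjusted p = 0.000767).

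The enzymes that supply NADPH were all tested (7 of 7) in both experiments. In cells, 1 was called higher and 3 lower between LPS and control, where 10.9% and 10% of all genes were. Between LPS-MIC-1 and LPS 2 were called higher and 3 lower (24.3% and 25.6% of all genes), and between LPS-MIC-1 and control 2 and 5 (21.1% and 22.1%). Idh1, the cytosolic isocitrate dehydrogenase, changed most in each, with 149 to 154 FPKM in control, 59.5 to 62.8 with LPS alone and 12.6 to 15.3 with LPS-MIC-1. It fell by 1.30 between control and LPS (adjusted p = 2.09e-06), and by 2.16 from LPS to LPS-MIC-1 (adjusted p = 3.69e-08). In muscle 0 of the 7 were called by limma in any comparison. Of all genes there, 1.25% were called between LPS and control. Between LPS-MIC-1 and LPS 9.67% were called higher and 5.44% lower, and against control 9.33% and 6.12%. The largest values were 0.99 for Pgd, an enzyme of the pentose phosphate pathway, between LPS and control (adjusted p = 0.24), 0.86 for Nadk, NAD kinase, between LPS-MIC-1 and LPS (0.0637), and 0.85 for Pgd between LPS-MIC-1 and control (0.186).

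The genes whose pattern came nearest to a member were found by the root mean square difference of log2(FPKM + 0.1) over the 9 libraries, each gene centred on its own mean. This is a description, since the libraries of a group share their treatment and markers. In cells the nearest to Cybb were Pld4 (0.148), Laptm5 (0.235) and Tyrobp (0.262), with means of 273, 1025 and 1137 FPKM in control. The nearest to Rac2 in cells were Mpeg1 (0.185), the member Ncf4 (0.304) and Cd83 (0.332). In muscle they were Gpnmb (0.331), Sfpi1 (0.422) and Lgals3 (0.434) for Cybb, and Sfpi1 (0.395), Tyrobp (0.454) and Psat1 (0.476) for Rac2. Muscle Cybb had means of 0.123 and 0.291 FPKM in control and LPS, near the added 0.1, so little is read from its neighbours there. Sfpi1, the older symbol of the gene for the myeloid transcription factor PU.1, and Tyrobp, a signalling adaptor, also belong to the macrophage list.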

How the data were processed

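Per the labels, RNA of 18 libraries was sequenced. Reads were quantified by the authors with kallisto and tximport, and the deposited values are FPKM, 1 value per gene symbol and library, in a table each for cells and muscle. The submitters' notes name the build mm9. The deposited DESeq2 results hold fold changes and p-values of the authors' own comparisons and were not used, nor were 9 unnamed columns of per-sample values in the muscle table. Since FPKM are not counts, log2(FPKM + 0.1) was fitted per table in R 4.3.3 with limma 3.58.1 (eBayes with trend, 3 groups, 9 libraries), for genes with a mean over 1 FPKM. Shares were compared with 2-sided exact permutation tests. The steps were tested on simulated data. The 2 tables were never tested against each other, and no 2 libraries were identical. The members and lists were chosen with earlier results of these data known. Named were all members, the homologues found, the gene changing most per list and comparison (some listed genes are not reported here), the 2 most abundant genes of a marker list or those at 0, and the 3 genes nearest to Cybb and Rac2. Tiam1 and Prkcb were named for the way they entered the test. The nearest to Nox4 are not given, since its levels lie near the added 0.1. Of the marker lists (8), lymphocyte, endothelial, mesenchymal and epithelial genes were also summed. In cells these sums were up to 8.16, 6.76, 291 and 18.2 FPKM and in muscle up to 1.35, 143, 146 and 2.02. All 7 members matched RefSeq symbols of another build, so no coordinates are given, and protein and promoter sequences were not used here. The alternatives were a pseudocount of 1 or 0.01, a mean over 5 FPKM or no filter, median-ratio scaling, quantile normalization, no trend, library weights, only the 6 libraries compared, a replicate block and leaving out each library. Figures were drawn with matplotlib 3.10.9.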

Additional observations from a re-analysis of the deposited data

Results flagged for a closer look

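Some members lay in opposite directions in cells and muscle, with groups that did not overlap in either. Between LPS and control, 40.1% of all tested genes lay lower without overlap in cells and 18.8% higher in muscle. These shares were 43.7% and 32.5% between LPS-MIC-1 and LPS, and 42.7% and 33.4% between LPS-MIC-1 and control. In muscle Cybb was not tested at the FPKM filter, and Ncf1 and Rac2 entered the test only through LPS-MIC-1. The difference between the experiments was not tested, since the tables were made separately and the cell markers go against the cell label. Between LPS and control, mean Cybb was 0.168 FPKM higher in muscle and differed by -109 FPKM in cells. Between LPS-MIC-1 and LPS, the muscle means were higher by 7.80 FPKM for Cyba, 1.39 for Cybb, 3.63 for Ncf1 and 3.33 for Rac2. In cells the differences of the same genes were -619, -105, -138 and -560.3 FPKM. Between LPS-MIC-1 and control, the muscle means were higher by 6.86 FPKM for Cyba, 1.55 for Cybb, 3.34 for Ncf1 and 3.27 for Rac2, and the cell differences were -538, -215, -321 and -444 FPKM. Replicate 3 holds most of the muscle LPS-MIC-1 mean of Cybb, Ncf1 and Rac2, but not of Cyba.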

How the results depend on the processing

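Depth is unknown, and the levels of Cybb, Ncf4 and Nox4 in muscle and of most members in cell LPS-MIC-1 lie where few reads decide a value. In cells, fitting only the 6 libraries compared gave 2 members called lower in LPS than in control (0 with all 9), 0 lower with LPS-MIC-1 than with LPS (5) and 2 lower than control (5). In these 3 comparisons, leaving out 1 library gave 0, 2 to 5 and 2 to 5 members called lower. In muscle, LPS-MIC-1 against LPS gave 1 member called higher in place of 2 with a mean over 5 FPKM and 0 to 3 when 1 library was left out. Against control 1 was called in place of 0 with a pseudocount of 1 and without an FPKM filter. The same held with only the 6 libraries and with the replicate block, and leaving out 1 library gave 0 to 2. At the filter of 1 FPKM, Ncf1 and Rac2 entered the muscle fits only through LPS-MIC-1, so nothing is read from their calls. Quantile normalization turned the LPS against control difference of Cyba to -0.074 and of Rac2 to -0.037 in cells, and that of Rac1 between LPS-MIC-1 and LPS to -0.019. When 1 library was left out, the muscle difference between LPS and control ranged from -1.59 to 0.00381 for Ncf1 and from -0.52 to 0.0213 for Rac2. With 0.1 FPKM added to each gene, the Cybb share of Cybb plus Nox4 in muscle was 25.1 percentage points higher in LPS-MIC-1 than in control. The cause was not tested, except that leaving out libraries or genes changes what enters the fit. Deviations of same-numbered libraries from their group means correlated between -0.0757 and 0.0573 in cells and between -0.0540 and 0.0823 in muscle. No shared effect of replicate number was thus seen. Whether libraries were paired when made cannot be told from these values. With the replicate block 4 members were called lower in cell LPS-MIC-1 than in control, without Cyba (adjusted p = 0.00118), and the block gave Ncf1 in muscle, LPS-MIC-1 against control, an adjusted p of 0.0293.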
